A study of Mus musculus with 4 samples.

Results

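The 37 genes described here encode the lysosome and the machinery of autophagy: lysosomal membrane and lumenal proteins, hydrolases, subunits of the proton pump (V-ATPase), the MiT/TFE transcription factors, autophagy (ATG) proteins and an autophagy receptor. They were taken from a list of symbols, matched to the deposited gene identifiers through GENCODE M21, and all 37 were found among the 55401 genes of the table. All 37 also passed the filter on low counts, which left 15341 genes for testing. The tested group was R1 mouse embryonic stem cells labelled Usp28 KO (knockout), in 2 libraries, set against R1 cells labelled wild type and control, also in 2 libraries. Both groups grew on 0.2% gelatin in N2B27 medium with 1 μM PD0325901 (a MEK inhibitor), 3 μM CHIR99021 (a GSK3 inhibitor) and 10 ng/ml leukaemia inhibitory factor, the condition called 2i/LIF. The labels name no clone, and nothing in them shows that the 2 libraries of a group were grown apart, so p-values measure a spread that may be technical.

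Lysosomes degrade material delivered by endocytosis and by autophagy, in which a double membrane closes around cytoplasm and then fuses with the lysosome. TFEB, TFE3 and MITF are related basic helix-loop-helix leucine zipper factors that activate many lysosome and autophagy genes through E-boxes with the core CACGTG. mTORC1, on the lysosome surface, phosphorylates these factors and holds them in the cytoplasm when nutrients are plentiful. In mouse embryonic stem cells, the move of TFE3 out of the nucleus under the control of folliculin is a known step of the exit from the naive state. USP28 is a deubiquitinase whose substrates overlap with those of the FBXW7 ubiquitin ligase.

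The promoters of several of these genes hold CACGTG, a word that the MiT/TFE factors read, and they are shown for that reason. The letters do not show which factor, if any, reads them in these cells. RefSeq promoter windows on GRCm38.p6, from 250 bases before to 50 bases after an annotated start, were found for 30 of the 37 genes. The palindrome CACGTG, searched on both strands, stood in the window of 11 of these 30 genes. It stood in 23.3% of 129 other lysosome and autophagy genes with a window, and in 8.09% of the 27025 genes with a window. The 27025 genes were not limited to those that passed the filter on low counts, as all 37 did. A match in any window of a gene was counted, and 5 of the 37 genes had several windows. The 11 genes were Lamp1, Mcoln1, Ctsa, Ctsd, Ctsl, Gla, Gaa, Atp6v0d1, Atp6v1a, Atg5 and Atg7. The longer TCACGTGA, which contains CACGTG, stood in 6 of 30, against 7.8% of the 129 others and 1.12% of all genes with a window. A match describes these letters only, and is not a measured binding site. Position -1 is the base just before the start. In Lamp1, 4 copies of CACGTG (capitals) lie within the 77 bases before the start (chr8:13159084-13159160, plus strand).
Lamp1: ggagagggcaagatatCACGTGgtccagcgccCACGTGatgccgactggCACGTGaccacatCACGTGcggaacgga
The 6 genes with TCACGTGA (capitals) are aligned on that word, each with 10 bases on either side and on its own strand. The word starts at -46 in Mcoln1 (chr8:3500463-3500490, plus), at -99 in Ctsd (chr7:142387909-142387936, minus) and at -195 in Gla (chrX:134601183-134601210, minus). It starts at -132 in Atp6v1a (chr16:44139374-44139401, minus), at -13 in Ctsa (chr2:164833750-164833777, plus) and at -4 in Atp6v0d1 (chr8:105566051-105566078, minus). Gla holds a further copy at -228 and Ctsa at 5. RefSeq and GENCODE M21 place some starts differently, so the words in Mcoln1, Ctsd and Ctsa fall in a 5′ UTR of GENCODE transcripts of these genes, and that in Gla in one of the neighbour Hnrnph2.
Mcoln1: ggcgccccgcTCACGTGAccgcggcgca
Ctsd: cgcccgcgtcTCACGTGAcccgttgagg
Gla: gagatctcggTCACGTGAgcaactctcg
Atp6v1a: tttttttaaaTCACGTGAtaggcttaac
Ctsa: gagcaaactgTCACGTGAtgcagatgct
Atp6v0d1: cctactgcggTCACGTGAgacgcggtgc

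The 4 libraries were close in depth, and the data check the cell type but not the knockout. The Usp28 KO libraries held 17996611 and 18709558 counts and the control libraries 19533608 and 16595196. Usp28 itself had 3392 and 3319 counts in the libraries labelled Usp28 KO, against 3690 and 3120 in control libraries (log2 fold change -0.11 ± 0.15 SE, adjusted p = 0.857, edgeR), so the count of the whole gene does not show the edit. All 9 embryonic stem cell markers were expressed, at a mean of 282 to 2480 TPM (transcript abundance scaled for gene length and library size). The 7 fibroblast markers summed to 0.88 and 1.02 TPM in Usp28 KO libraries, against 0.51 and 0.885 TPM in control libraries, with Postn, Lum and Dcn at 0 in every library. The 5 macrophage markers, of a cell type rich in lysosomes, summed to between 0.214 and 0.315 TPM in Usp28 KO libraries and 0.233 and 0.499 TPM in control libraries, and Ptprc, Csf1r, Lyz2 and Adgre1 had no read. Marker sums for primitive endoderm were 9.74 and 9.93 TPM in Usp28 KO libraries and 6.39 and 9.75 TPM in control libraries. Those for trophoblast were 10.6 and 16.7 TPM in Usp28 KO libraries and 10.5 and 14.9 TPM in control libraries. Only Gata4 of the 6 primitive endoderm markers and Eomes of the 5 trophoblast markers averaged above 1 TPM, at 6.97 and 13 TPM. The neural progenitor markers summed to 15.7 and 19.2 TPM in Usp28 KO libraries and 16.7 and 17.3 TPM in control libraries. Nearly all of this was Sox1 and Pax6, with Neurog2 at 0. The part of these cell types in the results was not tested. Libraries differed in how their counts depended on transcript GC content: the rank correlation across genes of a library's deviation from the other libraries with GC content was 0.0502 and 0.377 in Usp28 KO replicates 1 and 2, and 0.0139 and -0.394 in control replicates 1 and 2.

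None of the 37 lysosome and autophagy genes passed the test between Usp28 KO and control cells. At an adjusted p under 0.05 by edgeR's quasi-likelihood test 0 genes were higher and 0 lower, as for all 15341 tested genes (0%). DESeq2 also called 0 of the 37, where it called 1.08% of the genes with an adjusted p, and limma-voom called 0. At an unadjusted p under 0.05, Wipi1 and Gabarapl1 were higher (6.86% of all tested genes were) and Grn and Mitf were lower (4.34% were), 4 genes in all against a background of 11.2%. By DESeq2 it was 2 higher and 2 lower, against 8.05% of all genes in both directions. These shares are near the background, so they are no result about the 37 genes as a set. The groups did not overlap for 10 of the 37, with 6 higher and 4 lower, where 41.8% of all tested genes did not overlap (21.4% higher and 20.4% lower). The median log2 fold change was 0.03 over the 37 genes, with 21 positive and 16 negative, beside -0.0040 over all tested genes. The extremes were -0.58 for Mitf and 0.77 for Wipi1. In bulk RNA, fewer cells with a transcript and less of it per cell cannot be told apart.

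The intervals of the 37 genes were narrower than those of most genes. For 35 of the 37, the 95% interval of the log2 fold change lay between -1 and 1, and for 13 of 37 between -0.5 and 0.5. Among all 15341 tested genes the corresponding numbers were 10330 and 2956. The 37 genes were measured on more reads than most, with a median of 82.9 CPM (counts scaled for library size) against 19.4 CPM for all tested genes, and a median standard error of 0.182 against 0.223. In a single library their counts ran from 187 to 13808. A p that misses the threshold does not show that levels were equal. Each interval is for a single gene and rests on the spread between the libraries of a group, which may be technical. A difference between knockout and control cells may thus lie outside it.

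**Figure D1:**
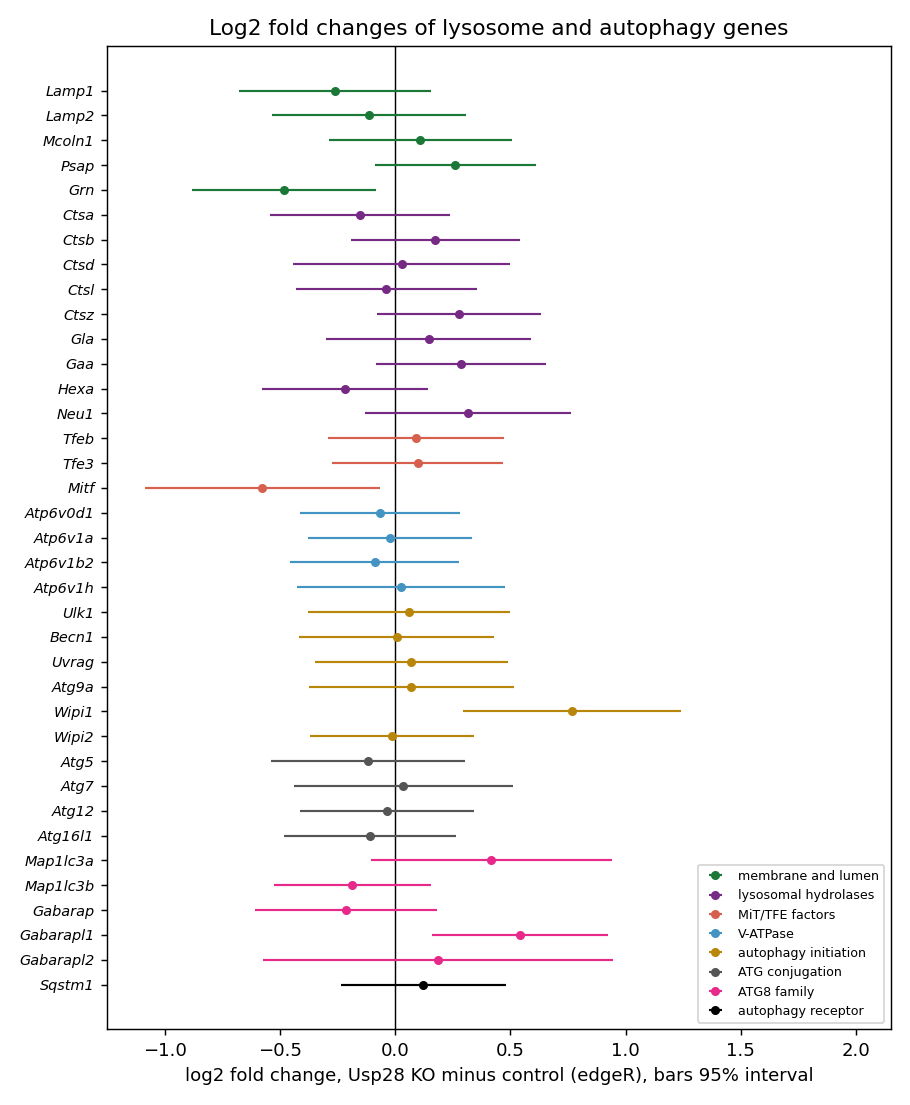
Log2 fold change of each of the 37 genes, Usp28 KO minus control, from edgeR's quasi-likelihood fit, with horizontal bars for the 95% interval and colours for the role of the protein. The intervals of Wipi1 and Gabarapl1 lie above 0 and those of Grn and Mitf below it before adjustment for the number of genes tested, and the other intervals include 0.

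The 3 MiT/TFE factor genes were all expressed, with Tfe3 the most abundant. Tfe3 stood at a mean of 53.6 TPM, Tfeb at 25.6 TPM and Mitf at 13.5 TPM over the 4 libraries. Tfe3 took 58.5% and 60.8% of the summed TPM of the family in Usp28 KO libraries, against 57.0% and 54.7% in control libraries. Mitf took 12.1% and 11.5% in Usp28 KO libraries, against 14.5% and 20.3% in control libraries, and its share was thus lower in both Usp28 KO libraries. Mitf (ENSMUSG00000035158, mm10 chromosome 6, 97807052 to 98021349) had 18.4 and 21.9 CPM in Usp28 KO libraries, against 23.3 and 36.8 CPM in control libraries. The groups did not overlap, and the control libraries lay far apart from each other. The log2 fold change was -0.58 ± 0.24 SE (unadjusted p = 0.0302, adjusted p = 0.383, edgeR), and it was -0.22 without control replicate 2, the library with the highest Mitf. Tfe3, whose product is the family member tied to the naive state, had 133 and 173 CPM in Usp28 KO libraries, against 137 and 148 CPM in control libraries. These values overlapped (log2 fold change 0.10 ± 0.17 SE, adjusted p = 0.886, edgeR). Tfeb differed by 0.09 ± 0.18 SE, with a 95% interval of -0.29 to 0.47. After correction for GC content, the Tfe3 and Tfeb values were -0.056 and -0.17, on the other side of 0.

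The genes of the lysosomal membrane and lumen included Lamp1, the most abundant per length of all 37, which encodes a major glycoprotein of the lysosomal membrane. Ulk1 had the higher mean CPM in both groups. Lamp1 averaged 657 TPM over the libraries, while Lamp2, its paralog with a further role in chaperone-mediated autophagy, averaged 37.4 TPM. Lamp1 had 397 and 558 CPM in Usp28 KO libraries, against 540.8 and 603 CPM in control libraries. Only Usp28 KO replicate 1 stood below both control libraries, and the groups overlapped (log2 fold change -0.26 ± 0.19 SE, adjusted p = 0.671, edgeR). Its value was -0.036 without Usp28 KO replicate 1 and -0.53 without Usp28 KO replicate 2. Grn (ENSMUSG00000034708, mm10 chromosome 11, 102430315 to 102437048) encodes progranulin, a secreted and lysosomal precursor that is cut into granulins. Grn had 138.5 and 152 CPM in Usp28 KO libraries, against 238 and 168 CPM in control libraries. Both Usp28 KO libraries lay below both control libraries, and control replicate 1 was the highest by far (log2 fold change -0.48 ± 0.18 SE, unadjusted p = 0.0220, adjusted p = 0.344, edgeR). Without control replicate 1 the Grn value was -0.21. Psap, the precursor of the saposins that help break down sphingolipids and a binding partner of progranulin, had 255 and 230.3 CPM in Usp28 KO libraries, against 214 and 191 CPM in control libraries. The Psap groups did not overlap either, in the direction opposite to Grn, and Psap did not pass the test (0.26 ± 0.16 SE, adjusted p = 0.595, edgeR), with a value of 0.14 after GC correction. Lamp2 and the calcium channel gene Mcoln1 had log2 fold changes of -0.12 and 0.11, with overlapping groups.

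The 9 hydrolase genes had a median log2 fold change of 0.15, with 6 positive, 3 negative and 0 at an unadjusted p under 0.05. The 5 cathepsin genes lay between 102 and 167 TPM. Ctsz, a carboxypeptidase and the most abundant per length of the 9, was at the top of that range and Ctsb at the bottom. In mean CPM Ctsl stood highest of the 9 in both groups. Ctsz had 73.1 and 83.7 CPM in Usp28 KO libraries, against 66.4 and 63.2 CPM in control libraries. Its groups did not overlap (log2 fold change 0.28 ± 0.16 SE, adjusted p = 0.580, edgeR), and the value after GC correction was 0.079. The aspartic protease gene Ctsd and the cysteine protease genes Ctsl and Ctsb differed by 0.03, -0.04 and 0.17, and Ctsa, which protects NEU1 in a complex, by -0.15, all with overlapping groups. Ctsa was at -0.33 after GC correction. Of the glycosidases, Gaa (acid alpha-glucosidase) and Gla (alpha-galactosidase A) did not overlap between the groups and were higher in Usp28 KO libraries. Their log2 fold changes were 0.29 ± 0.17 and 0.15 ± 0.20 SE (adjusted p = 0.580 and 0.851, edgeR). Gaa was at 0.055 after GC correction. Hexa, the alpha subunit of beta-hexosaminidase, had 69.5 and 83.8 CPM in Usp28 KO libraries, against 91.0 and 87.2 CPM in control libraries (-0.22 ± 0.17 SE, adjusted p = 0.679, edgeR). After GC correction Hexa was at -0.36. Of the 9 genes, 3 had groups apart and higher (Ctsz, Gaa and Gla) and 1 apart and lower (Hexa). Among all tested genes 41.8% did not overlap, so these counts are no result about the hydrolases. Neu1, the lysosomal sialidase gene, differed by 0.31 ± 0.21 SE with overlapping groups. The Neu1 value was 0.17 after GC correction, 0.54 without Usp28 KO replicate 1 and 0.04 without Usp28 KO replicate 2. Summed over the 9 genes, the level was 893 and 972 TPM in Usp28 KO libraries, against 937 and 784 TPM in control libraries, so the sums overlapped.

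The V-ATPase, which acidifies the lysosome and serves as a docking site for the mTORC1 machinery, was represented by 4 subunit genes whose log2 fold changes all lay between -0.09 and 0.03. Atp6v0d1, of the membrane sector, was the most abundant per length, with a mean of 214 TPM. It had 109 and 114 CPM in Usp28 KO libraries, against 126 and 108 CPM in control libraries. Atp6v1b2, a subunit of the catalytic head, had 257 and 232 CPM in Usp28 KO libraries, against 288 and 233 CPM in control libraries (-0.09 ± 0.17 SE, adjusted p = 0.898, edgeR). In both genes the values overlapped. The catalytic subunit gene Atp6v1a and the regulatory subunit gene Atp6v1h differed by -0.02 and 0.03. None of the 4 had groups that were apart, and the sums were 548 and 499 TPM in Usp28 KO libraries, against 575 and 470.5 TPM in control libraries.

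**Figure D2:**
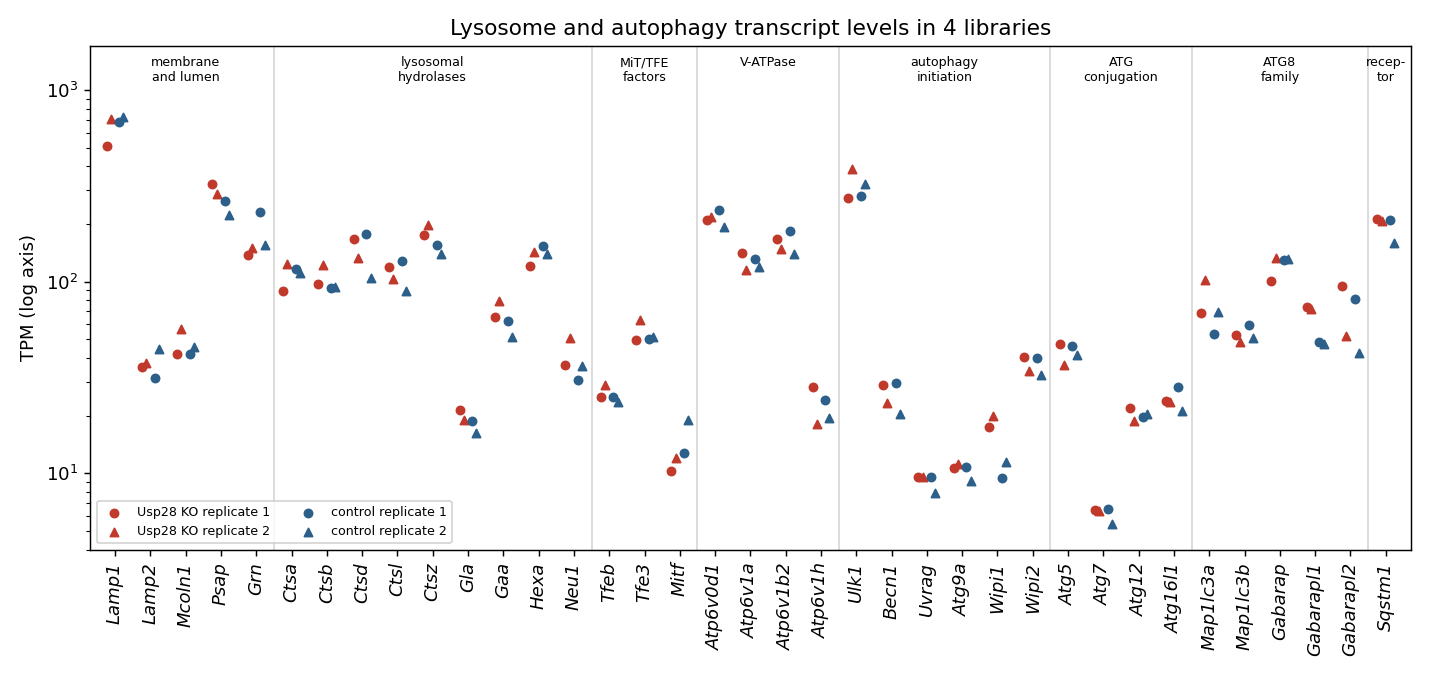
TPM of each of the 37 genes in the 4 libraries on a log axis, Usp28 KO in red left of control in blue, with circles for replicate 1 and triangles for replicate 2 and the roles separated by grey lines. Levels range from 6.18 TPM for Atg7 to 657 TPM for Lamp1, and the groups overlap for most genes.

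Among the genes that start and shape the autophagosome, Wipi1 had the largest difference of all 37. Wipi1 (ENSMUSG00000041895, mm10 chromosome 11, 109573331 to 109611967) encodes a phosphoinositide-binding protein recruited to the forming autophagosome. It had 416 and 481 counts in Usp28 KO libraries, against 240 and 252 counts in control libraries, which is 22.3 and 25.7 CPM in Usp28 KO libraries and 12.3 and 15.9 CPM in control libraries. Both Usp28 KO libraries stood above both control libraries. The means were 23.96 ± 2.41 CPM in Usp28 KO and 14.1 ± 2.55 CPM in control libraries (SD, n = 2 each; log2 fold change 0.77 ± 0.22 SE, 95% interval 0.30 to 1.24, edgeR adjusted p = 0.200). With a library left out the value stayed between 0.59 and 0.95, and it was 0.70 after GC correction. Its adjusted p was 0.132 by DESeq2 and ran, over the settings without a replicate block, from 0.0592 with no filter on low counts to 0.498 without control replicate 1. The related Wipi2, which recruits ATG16L1, was more abundant and differed by -0.01 ± 0.16 SE. Wipi2 had 124 and 106 CPM in Usp28 KO libraries, against 124 and 108 CPM in control libraries. The difference between these paralogs was not tested.

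The Wipi1 promoter is shown because the gene stands at the top of the list and lacks the word shared by the genes above. Its RefSeq window held no CACGTG. The stretch from -250 to -44 (chr11:109611433-109611639, minus strand) held 7 copies of the GC box GGGCGG (capitals), all on the strand of the gene. It overlaps no exon of GENCODE M21, although the GENCODE gene begins further upstream. GGGCGG, searched on both strands, stood in 21 of the 30 genes with a window. It stood in 69.8% of the 129 other lysosome and autophagy genes and in 38.2% of all genes with a window.
Wipi1: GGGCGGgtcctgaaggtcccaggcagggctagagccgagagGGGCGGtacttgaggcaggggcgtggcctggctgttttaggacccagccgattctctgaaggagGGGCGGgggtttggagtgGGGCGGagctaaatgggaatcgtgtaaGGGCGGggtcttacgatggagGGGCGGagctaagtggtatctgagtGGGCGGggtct
Neither Gabarapl1, Grn nor Mitf had CACGTG in a window. Of the 11 genes with the word 5 were positive and 6 negative, with a median log2 fold change of -0.02 and a range of -0.26 to 0.29. The 19 genes with a window but without the word had a median of 0.07 and ranged from -0.58 to 0.77. Nothing about the factors follows from letters in this window.

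The other genes of autophagy initiation had log2 fold changes between -0.01 and 0.07, with 95% intervals that reach well beyond these values. Ulk1, the kinase that starts autophagosome formation, was the most abundant of these genes, at a mean of 316 TPM. It had 511 and 736.5 CPM in Usp28 KO libraries, against 537 and 659 CPM in control libraries. The libraries of each group differed more than the groups did (log2 fold change 0.06 ± 0.20 SE, adjusted p = 0.950, edgeR), and after GC correction the value was -0.17. Becn1 and Uvrag, of the class III phosphoinositide 3-kinase complexes, differed by 0.0060 and 0.07, and Atg9a, the lipid scramblase of the ATG9 vesicles, by 0.07. Atg9a overlaps Ankzf1 on the opposite strand, and Ankzf1 had 3621 reads in all where Atg9a had 1301. No source used here gives the strand setting of the counting, so reads of the pair may be shared. In all, 12 of the 37 genes overlap a protein-coding gene on the opposite strand. Among them were Ctsz, with 5235 reads beside 6606 of Nelfcd, Map1lc3b, with 8629 beside 6072 of Zcchc14, Ctsb, with 13372 beside 9256 of Fdft1, and Ctsa, with 11265 beside 5258 of Pltp. Lamp1 had 38009 reads beside 3853 of Grtp1, and for the other 6 the partner had at most 478 reads.

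The 4 conjugation genes, whose products attach ATG8 proteins to lipid, had log2 fold changes between -0.12 and 0.04 and no groups that were apart. Atg5 was the most abundant per length, with a mean of 43.0 TPM, and had 32.3 and 25.4 CPM in Usp28 KO libraries, against 32.1 and 30.6 CPM in control libraries. Atg16l1 had 23.8 and 23.7 TPM in Usp28 KO libraries, against 28.1 and 21.1 TPM in control libraries (-0.11 ± 0.17 SE, adjusted p = 0.871, edgeR). Values of both genes overlapped between the groups. Atg12 and the E1-like enzyme gene Atg7 differed by -0.04 and 0.04. Atg7 was the least abundant of the 37, at 6.18 TPM.

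The ATG8 family, the ubiquitin-like proteins that coat the autophagosome membrane, held 1 of the 2 genes with the largest positive values. Gabarapl1 (ENSMUSG00000030161, mm10 chromosome 6, 129533160 to 129542346) had 43.1 and 42.6 CPM in Usp28 KO libraries, against 28.97 and 29.9 CPM in control libraries. Replicates of each group nearly coincided and the groups were apart. The means were 42.8 ± 0.316 CPM in Usp28 KO and 29.5 ± 0.694 CPM in control libraries (SD, n = 2 each; log2 fold change 0.54 ± 0.18 SE, 95% interval 0.16 to 0.92, edgeR adjusted p = 0.276). Its value was 0.51 to 0.55 when a library was left out, the narrowest range of the 4 genes under an unadjusted p of 0.05, and 0.44 after GC correction. Gabarap, the most abundant of the family per length at a mean of 123.5 TPM, stood below Map1lc3b in CPM. It had 53.6 and 72.2 CPM in Usp28 KO libraries, against 70.4 and 75.4 CPM in control libraries. Those values overlapped (-0.21 ± 0.18 SE, adjusted p = 0.717, edgeR), and the value was -0.014 without Usp28 KO replicate 1 and -0.45 without Usp28 KO replicate 2. Map1lc3b, which encodes the widely used autophagosome marker LC3B, had 114 and 107 CPM in Usp28 KO libraries, against 132 and 120.1 CPM in control libraries. It did not overlap between the groups and did not pass the test (-0.19 ± 0.16 SE, adjusted p = 0.711, edgeR). Map1lc3a, at 0.42 ± 0.24 SE, had overlapping groups and a value of 0.14 after GC correction, the largest move by that correction among the 5. Leaving out a library took Map1lc3a to 0.69 without Usp28 KO replicate 1 and 0.65 without control replicate 2, and to 0.08 without Usp28 KO replicate 2 and 0.20 without control replicate 1. Gabarapl2 differed more between replicates than between groups, with 63.7 and 35.4 CPM in Usp28 KO libraries and 56.0 and 31.0 CPM in control libraries.

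In the makeup of the ATG8 family, Gabarapl1 took 18.9% and 17.7% of the summed TPM in Usp28 KO libraries, against 13.1% and 13.9% in control libraries. Gabarap took 25.7% and 32.7% in Usp28 KO libraries, against 34.7% and 38.3% in control libraries, and Map1lc3b took 13.5% and 11.9% in Usp28 KO libraries, against 15.9% and 15% in control libraries. The 3 shares did not overlap between the groups, with Gabarapl1 higher and Gabarap and Map1lc3b lower in Usp28 KO libraries. The shares of Map1lc3a and Gabarapl2 overlapped. In CPM Gabarap itself overlapped, and 41.8% of all tested genes did not overlap between the groups. Shares within a family are tied to each other, and no test was made of them. Sqstm1, which encodes the receptor p62 that carries ubiquitinated cargo to ATG8 proteins, had 205 and 204 CPM in Usp28 KO libraries, against 208 and 168 CPM in control libraries (0.12 ± 0.17 SE, adjusted p = 0.840, edgeR).

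**Figure D3:**
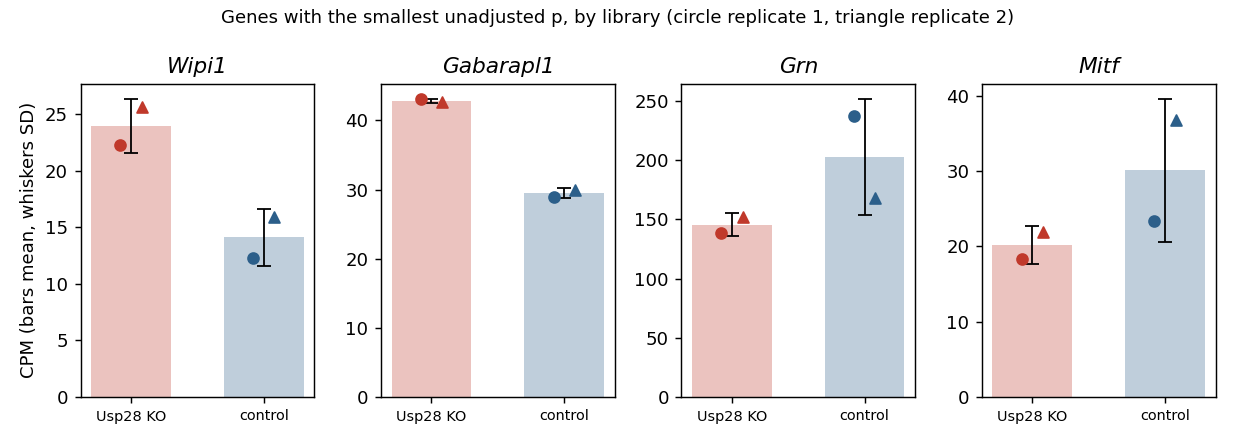
CPM of Wipi1, Gabarapl1, Grn and Mitf, the 4 genes with an unadjusted p under 0.05, in Usp28 KO (red, left) and control (blue, right) libraries. Bars give the mean and whiskers the SD of n = 2, circles are replicate 1 and triangles replicate 2, and in each panel the libraries of the groups do not overlap.

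The differences among the 37 genes were related to the GC content of their transcripts. Across the 37, which share the same libraries, the log2 fold change and GC content had a rank correlation of 0.373, and across all tested genes it was 0.301. After a correction for the GC trend of each library it was -0.12 across the 37. Genes of the highest GC content moved most, and Lamp2, with the lowest GC content of the 37, moved from -0.12 to 0.055. Tfeb, Ulk1 and Atg9a had values of -0.17, -0.17 and -0.12 after the correction, against 0.09, 0.06 and 0.07 before it. Wipi1, Gabarapl1, Grn and Mitf stood at 0.70, 0.44, -0.63 and -0.58 with the correction. They and Hexa, at -0.36, had an unadjusted p under 0.05 by edgeR, and 0 of 37 had an adjusted p under 0.05. Without the correction 11.2% of all tested genes had an unadjusted p under 0.05 by edgeR. The share with the correction is not given here, so this count is no result about the 37 genes. The median over the 37 was -0.038 with the correction, beside -0.035 over all tested genes.

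**Figure D4:**
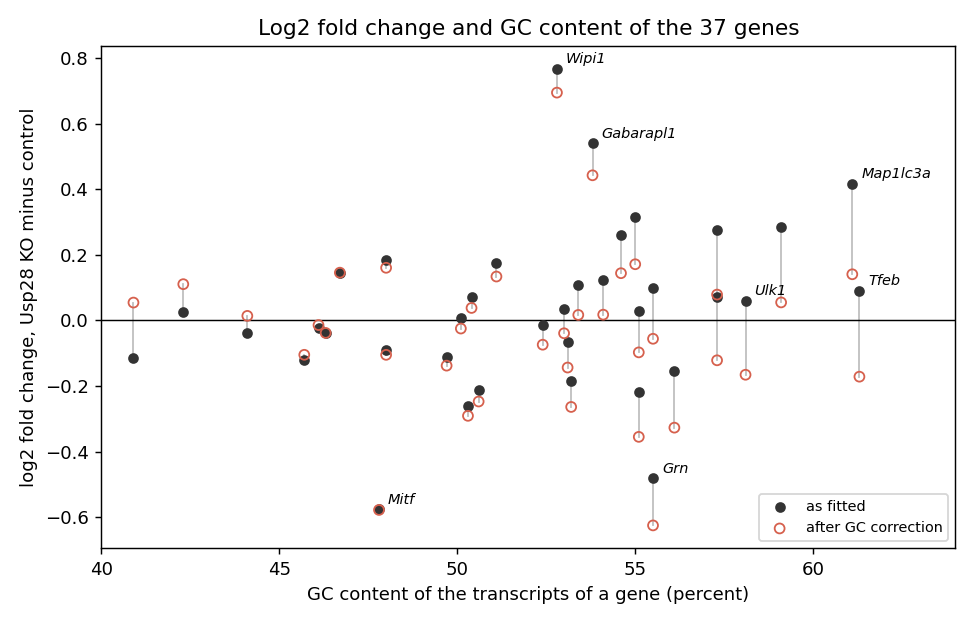
Log2 fold change, Usp28 KO minus control, of each of the 37 genes against the GC content of its transcripts in percent, before (filled) and after (open) a correction for the GC trend of each library, with a grey line joining both values of a gene. Values of GC-rich genes such as Tfeb and Map1lc3a drop with the correction, while Wipi1, Gabarapl1, Grn and Mitf keep their side of 0.

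Another 158 genes of the pathway, listed by role, gave no calls either. Of the 151 that passed the filter 0 were called by edgeR or DESeq2. At an unadjusted p under 0.05 by edgeR 4 were higher and 9 lower of the 151. Among all tested genes 6.86% were higher and 4.34% lower, 11.2% in all, so these counts are no result about the list. Their median log2 fold change was -0.05, with 65 positive and 86 negative, beside -0.0040 over all tested genes.

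Among 31 other lysosomal enzymes, Manba, Ppt1, Tpp1 and Naglu had the smallest p. Manba, the lysosomal beta-mannosidase gene, had 88.3 and 96.6 CPM in Usp28 KO libraries, against 144 and 138 CPM in control libraries. The groups were far apart relative to the spread of their replicates, and Manba still missed the threshold (log2 fold change -0.61 ± 0.16 SE, adjusted p = 0.158 by edgeR and 0.0655 by DESeq2). Ppt1 and Tpp1, whose loss causes neuronal ceroid lipofuscinosis, had log2 fold changes of -0.47 and -0.53, and Naglu, a heparan sulfate-degrading enzyme gene, 0.66. Among 23 lysosomal membrane and transport genes, those with the smallest p included the cystine transporter gene Ctns (-0.48), Hgsnat (0.45) and Spns1 (-0.35). Among 15 other V-ATPase subunit genes, 0 had an unadjusted p under 0.05, and Atp6v0c, Atp6v0e2, Atp6v1d and Atp6ap2 stood first, at -0.33, 0.43, -0.22 and -0.21.

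Among 28 further autophagy genes Rb1cc1, which encodes the ULK complex scaffold FIP200, had a log2 fold change of -0.43, followed by Wdr45 (-0.50), Atg14 (-0.35) and Atg2a (-0.33). Of 15 other autophagy receptor genes, the large scaffold gene Wdfy3 had 89.9 and 113 CPM in Usp28 KO libraries, against 146 and 144 CPM in control libraries (-0.52 ± 0.17 SE, adjusted p = 0.272, edgeR). Bnip3, a mitophagy receptor gene that is also a known hypoxia target, had 151.5 and 182 CPM in Usp28 KO libraries, against 82.97 and 139.7 CPM in control libraries (0.58 ± 0.23 SE, adjusted p = 0.363, edgeR). Retreg1 and Calcoco1 followed at 0.50 and -0.36. In both Wdfy3 and Bnip3 the groups were apart.

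The list on mTORC1 at the lysosome and on control of TFEB had the lowest median of the lists. Besides Rag, Ragulator and folliculin complex genes it holds Mtor and others of mTORC1, Rheb, Tsc1, Tsc2, Zkscan3, Foxo1 and Foxo3. Of 21 tested, 6 were positive and 15 negative, with a median log2 fold change of -0.15. The groups were apart and lower for 10 of the 21, where this held for 20.4% of all tested genes, and 0 were called. They were apart and higher for 2 of the 21, where this held for 21.4% of all tested genes. No test was made of the list as a set. Tsc2, Zkscan3 and Foxo1 were among the 10. Rragc, a Rag GTPase gene, had 46.3 and 42.6 CPM in Usp28 KO libraries, against 63.2 and 55.8 CPM in control libraries (-0.42 ± 0.17 SE, adjusted p = 0.375, edgeR). Lamtor2, a Ragulator subunit gene, had 55.8 and 53.4 CPM in Usp28 KO libraries, against 40.5 and 40.4 CPM in control libraries (0.43 ± 0.17 SE, adjusted p = 0.351, edgeR). Lamtor3, another Ragulator subunit gene, stood on the other side of 0, at -0.37. Fnip2 and Flcn, which encode the folliculin complex that acts on RagC, were at -0.35 and -0.33, with an adjusted p of 0.431 and 0.547 by edgeR. Flcn had 55.8 and 51.2 CPM in Usp28 KO libraries, against 77.1 and 57.4 CPM in control libraries. Control replicate 2 thus lay just above Usp28 KO replicate 1. Among 18 genes of sorting to and fusion with the lysosome, Igf2r (0.31), Vps33a (-0.32), Arl8b (-0.31) and Nagpa (-0.37) had the smallest p, none under 0.05 before adjustment.

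**Figure D5:**
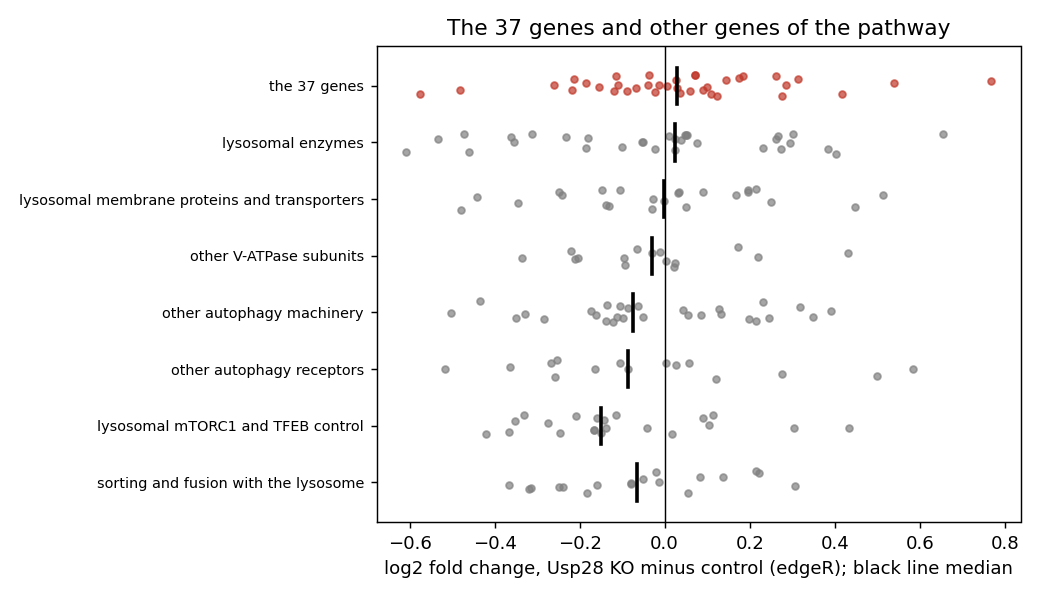
Log2 fold change, Usp28 KO minus control, of the 37 genes (red) and of the 151 other tested genes of the pathway by role (grey), 1 point a gene, with a black line at each median. The medians lie between -0.15 and 0.03, and all points lie between -0.61 and 0.77.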

How the data were processed

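RNA was extracted with TRIzol and 1 μg per library was selected with oligo(dT) beads and made into TruSeq libraries, per the labels' protocols. The authors deposited raw read counts per gene, and the header has the layout of featureCounts. HISAT2, featureCounts, DESeq2 and mm10 are named in the submitters' processing notes. For versions, strand setting and multiply mapped reads, the entry is: not given in the sources used here. The deposited exon length of each gene (other unit: bases) served for TPM, computed here over all genes. Ranks of genes by TPM depend on this length.

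Of 55401 identifiers, 55141 had a GENCODE M21 symbol, and the 54349 that matched with their version had the same span. Genes were kept by filterByExpr (minimum count 10, minimum total 15) in edgeR 4.0.16 (R 4.3.3), scaled by TMM and fitted with a robust quasi-likelihood model of group alone, with p-values adjusted by Benjamini-Hochberg over all tested genes and a threshold of 0.05. CPM use the TMM-scaled library totals. Fold changes are Usp28 KO minus control. DESeq2 1.42.0 and limma 3.58.1 were alternatives. The scripts were tested on simulated data. GC content was known for 99.9% of tested genes, and the correction took up a spline (5 degrees of freedom) per library.

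The 37 genes and all lists were chosen with earlier results of these data known. Values per library are given for genes with an unadjusted p under 0.05, for the most abundant gene per length and the gene with the smallest p of each role, and further genes of a role were added after their values were seen. Of each other list, the 4 genes with the smallest p are named, except 1 gene that is not reported here, and Flcn was added after its values were seen.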

Additional observations from a re-analysis of the deposited data

How the results depend on the processing

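The 37 genes gave 0 calls in every setting except those with a replicate block. The labels give replicate numbers 1 and 2 in both groups but no shared batch. Same-numbered libraries deviated together across genes (r = 0.354), which with 2 numbers does not establish pairs. With the replicate block edgeR called 1681 of all genes, 12 of the other pathway genes and 4 of the 37 (Wipi1, Gabarapl1, Grn and Mitf), and with the block and GC correction 2316, 31 and 8 (Lamp1, Ctsa, Hexa and Map1lc3b besides those). Over all genes there were 140 calls by DESeq2, 21 with upper-quartile scaling, 29 with library totals, 322 with no filter and 142 to 346 with a library left out. Among other pathway genes there was 1 call with no filter (Manba) and 0 to 1 with a library left out (Tpp1 without Usp28 KO replicate 2, Bnip3 without control replicate 2). The median over the 37 ran from -0.062 (without control replicate 2) to 0.096 (without control replicate 1). The cause of these moves was not tested. Scaling moved the median of all genes by less than 0.1.

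Of the 37, 14 kept their direction in all 14 settings, 8 higher and 6 lower. The settings reuse the same 4 libraries, and the share over all tested genes is not given here, so this count is no result about the 37 genes. Leaving out a library moved Psap between 0.17 and 0.35, Ctsz between 0.17 and 0.37, Gla between 0.064 and 0.22, Gaa between 0.13 and 0.42, Hexa between -0.36 and -0.09 and Map1lc3b between -0.26 and -0.12. The other 23 crossed 0 in some setting, and of these Ctsa alone was called in any, with the block and GC correction. With a library left out the log2 fold change ran from -0.42 to 0.067 for Ctsa, -0.28 to 0.41 for Ctsd, -0.31 to 0.29 for Atp6v1h, -0.21 to 0.25 for Becn1, -0.30 to 0.68 for Gabarapl2, -0.14 to 0.32 for Mcoln1, -0.018 to 0.34 for Ctsb, -0.25 to 0.20 for Ctsl, -0.038 to 0.20 for Tfeb, -0.11 to 0.27 for Tfe3, -0.16 to 0.10 for Atp6v1a, -0.23 to 0.30 for Ulk1, -0.13 to 0.091 for Wipi2, -0.30 to 0.037 for Atg5, -0.14 to 0.056 for Atg12, -0.18 to 0.048 for Atp6v0d1, -0.24 to 0.071 for Atp6v1b2, -0.28 to 0.065 for Atg16l1, -0.38 to 0.20 for Lamp2, -0.030 to 0.17 for Uvrag, -0.016 to 0.15 for Atg9a, -0.065 to 0.13 for Atg7 and -0.033 to 0.28 for Sqstm1. GC correction gave 0.055 for Lamp2, -0.097 for Ctsd, -0.17 for Tfeb, -0.056 for Tfe3, -0.17 for Ulk1, -0.025 for Becn1, -0.12 for Atg9a, -0.039 for Atg7 and 0.014 for Atg12, and with the block 0.062, -0.080, -0.17, -0.060, -0.17, -0.014, -0.12, -0.037 and 0.013 in the same order. Upper-quartile scaling and library totals gave 0.018 and 0.020 for Ctsl, 0.034 and 0.040 for Atp6v1a, 0.043 and 0.047 for Wipi2, and 0.020 and 0.027 for Atg12. Wipi2 was at 0.00060 with at least 50 counts in 2 libraries, and Atp6v1h at -0.0034 by limma-voom.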
